A study of Arabidopsis thaliana with 24 samples.

Results

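The chromatin protein genes described here are HTB1 (AT1G07790), HTB2 (AT5G22880) and HTB4 (AT5G59910), which encode histone H2B, and 3xHMG-box1 (AT4G11080) and 3xHMG-box2 (AT4G23800). Their members were the probe sets that the platform annotation links to these genes, 5 of the 22746 probe sets that are not controls, and each named 1 gene alone, making 5 of the 13350 genes so named. ATH1 arrays (Affymetrix) read transcript signals in total RNA of intact Arabidopsis thaliana seedlings, 7 days old. Wild type (WT, Col) was compared with csn3-1, csn4-1 and a line labelled csn5, whose label names the alleles csn5a-2 and csn5b, each line raised in light and in darkness, with 3 arrays in each of the 8 groups. The design text calls the arrays of a group biologically independent. The labels of the light-grown WT arrays also carry the name CSN4-1 beside Col, and its meaning is not given in the sources used here. The title of another csn3 dark array repeats replicate number 1, and that array is called replicate 3 here. Each mutant line was represented by 1 allele or allele combination. Whole seedlings mix many cell types, so fewer cells of a type and less RNA per cell cannot be told apart in any value below.

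H2B pairs with H2A in the nucleosome, the particle that DNA is wound around, and in Arabidopsis its ubiquitin-marked form accompanies transcription. Bulk histone mRNA is made mainly while DNA is replicated, and several H2B genes exist side by side in the genome. The 3xHMG-box proteins are specific to plants, carry repeated HMG-box DNA-binding domains and attach to the condensed chromosomes of dividing cells. The mutated genes encode subunits of the COP9 signalosome, which takes the ubiquitin-like protein NEDD8 off cullin ubiquitin ligases and represses the light-grown form of the seedling in darkness.

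Signals were scaled to a trimmed mean of 500 and compared as log2(signal + 50). Calling a probe set took both a limma adjusted p under 0.05 and a log2 change no smaller than 1, and adjusted p-values below are limma's over 18751 tested probe sets. A ± beside a log2 difference is the SE of that model, one beside a signal is the SD of 3 arrays, and the number of arrays limits the precision of every value. All 5 members passed the filter on dim probe sets. HTB1, HTB2, HTB4 and 3xHMG-box2 had a signal of at least 100 in 24 of 24 arrays, and 3xHMG-box1 in 19 of 24.

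Some arrays and labels stood apart. Arrays of 1 group correlated at 0.884 to 0.988, lowest in csn4 light, where replicate 2 had an actin 3′/5′ ratio, a sign of RNA degradation when high, of 48.9. That ratio was 2.44 to 3.12 in WT light against 5.17 to 48.9 in mutants in light, with no overlap, and 2.26 to 21.3 in WT dark against 6.12 to 27.5 in mutants in darkness. The CSN5B probe set read 1573 to 1897 in csn5-labelled dark arrays and 118 to 177 in WT dark, the reverse of a loss of signal. It read 188 to 234 in csn3 dark and 146 to 247 in csn4 dark. Where this probe set lies relative to the csn5b mutation is not known, and CSN5A had no probe set. Loss of either gene could therefore not be checked, and this line is called csn5-labelled. WT light and csn4 light arrays carry sample numbers from another range than the other 18 arrays. For csn3 and csn5-labelled seedlings in light against WT, and for light against darkness in WT and csn4, that range and the groups cannot be told apart. Over all tested probe sets the median log2 difference of the mutants from WT was 0.18 in darkness and in light, and shifts relative to it are given where they matter. It was 0.07 and 0.03 after quantile normalization. Of the probe sets called in the csn mean, 2539 were higher and 2190 lower in darkness and 2130 and 1727 in light, and with arrays scaled to their median these became 1972 and 2707, and 1611 and 2313.

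HTB2, a canonical H2B gene, was higher in every mutant array than in every WT array grown the same way. In darkness its signal was 865, 632 and 651 in WT and 1406, 1320 and 1235 in csn3. It was 1623, 1492 and 1454 in csn4 dark arrays and 1872, 1584 and 1646 in csn5-labelled ones. The lowest mutant array in darkness therefore lay above the highest WT array. In light the signal was 1102, 1128 and 1071 in WT and 1533, 1628 and 1544 in csn3. Light-grown csn4 gave 2111, 2365 and 1891, and light-grown csn5-labelled seedlings gave 2226, 2052 and 1618. Here too no mutant array reached down to WT. The share of all tested probe sets that separate mutants from WT in this way is not given here. Separation of arrays, here or below, therefore does not mark a member as unusual. In the csn mean, 54.0% of tested probe sets had a limma adjusted p under 0.05 in darkness and 48.5% in light.

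HTB4, another H2B gene, ran the other way in darkness. Its dark signal was 3116, 4062 and 4638 in WT and 1154, 1964 and 1799 in csn3. Dark-grown csn4 gave 1817, 1931 and 1502, and dark-grown csn5-labelled seedlings 2232, 2089 and 2358. All 9 dark mutant arrays lay below all 3 dark WT arrays. In light the signal was 3102, 3374 and 2901 in WT and 1826, 2330 and 1976 in csn3. In csn4 light arrays it was 1893, 3940 and 2542, and in csn5-labelled light arrays 2988, 2941 and 2309. Light-grown csn3 stayed below WT in every array, while csn4 replicate 2 exceeded all WT light arrays and the csn5-labelled arrays overlapped WT.

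HTB1, a further H2B gene, was higher than WT in most dark mutant arrays and overlapped WT in light. Its dark signal was 728, 857 and 788 in WT and 831, 1276 and 997 in csn3. In darkness csn4 gave 1183, 1670 and 906, and csn5-labelled seedlings gave 1099, 1242 and 1416. The csn4 and csn5-labelled dark arrays lay above WT, and 1 csn3 array fell within the WT range. In light the HTB1 signal was 841, 1000.1 and 991 in WT and 881, 931 and 1132 in csn3. Light-grown csn4 gave 1085, 1239 and 917, and csn5-labelled seedlings 751, 767 and 967. All 3 mutants overlapped WT in light.

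**Figure D1:**
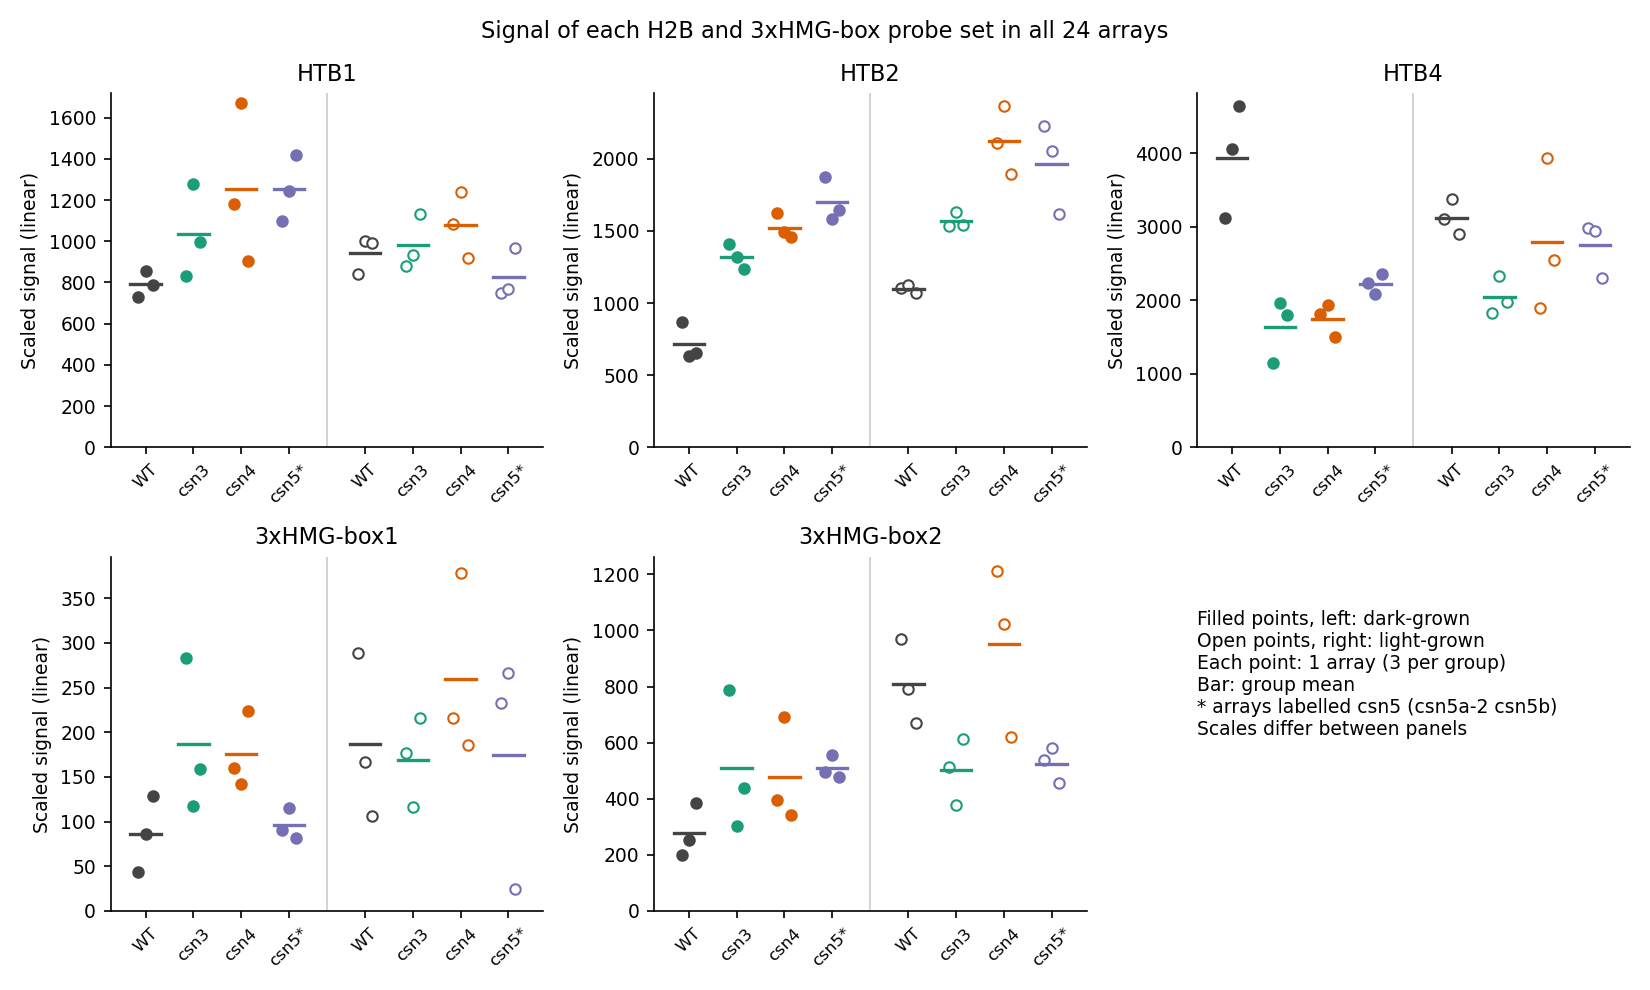
Scaled signal (linear axis, its own range for each gene) of the 5 probe sets in all 24 arrays. Points are single arrays, filled for dark-grown and open for light-grown seedlings, and bars are means of 3 arrays. HTB2 separates mutants from WT in both conditions (WT dark mean 716, mutants dark mean 1515), HTB4 separates them in darkness only, and 3xHMG-box1 spreads widely within groups.

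The dark difference of HTB2 was 1.03 ± 0.12 on the log2 scale in the mean of the mutants (9 arrays against 3, adjusted p = 4.29e-08), a call, with 13.5% of tested probe sets called higher in that comparison. Relative to the median of all probe sets it was 0.85, and with arrays scaled to their median it was 0.86. The call sits at the size limit: leaving out WT dark replicate 2 (0.96) or 3 (0.98) ended it, while the adjusted p stayed at or below 9.39e-06 in all 37 alternatives run. HTB2 was 0.85 higher in csn3 (adjusted p = 3e-05, under the size limit) and was called at 1.05 for csn4 and at 1.201 for csn5-labelled seedlings. Leaving out WT dark replicate 2 (0.97) or 3 (0.99) likewise ended the csn4 call, as did scaling to the array median (0.73) and leaving out the 4 arrays of highest actin ratio (0.93).

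HTB4 fell by 1.06 ± 0.17 in darkness (adjusted p = 9.16e-06), where 11.7% of probe sets were called lower. Its shift relative to the median was -1.24. Leaving out WT dark replicate 3 (-0.94) or csn3 dark replicate 1 (-0.99) took it under the size limit, and its adjusted p stayed at or below 0.000438 in the 37 alternatives. By line, csn3 (-1.26) and csn4 (-1.14) carried a call, and the csn5-labelled value was -0.79 (adjusted p = 0.0032). The csn3 call was lost without the 4 arrays of highest actin ratio (-0.997), and the csn4 call with quantile normalization (-0.996).

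HTB1 differed by 0.52 ± 0.16 in darkness (adjusted p = 0.00588) without reaching the size limit. Relative to the median of all probe sets this was 0.34, and its adjusted p was under 0.05 in 36 of 37 alternatives (highest 0.0698). Of the 5 members, 1 was called higher, 1 lower and 3 neither, and 4 had an adjusted p under 0.05 at any size, as did 54.0% of all tested probe sets. By line, 1 member was called in csn3 dark (background 26.2%), 2 of 5 in the csn4 line (28.6%) and 1 in the csn5-labelled line (26.0%), so the share of calls was close to that of all probe sets. The members' median dark difference was 0.56, against 0.18 over all probe sets.

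In light 0 of 5 members were called, where 20.6% of probe sets were called in either direction, and limma gave 1 member an unadjusted p under 0.05. That member was HTB2, 0.73 ± 0.12 higher (adjusted p = 1.27e-05). HTB4 differed by -0.34 ± 0.17 (adjusted p = 0.11) and HTB1 by 0.02 ± 0.16 (95% interval -0.30 to 0.34). By line the counts were also 0 of 5, against 20.9% of probe sets in csn3, 24.1% in csn4 and 21.3% in csn5-labelled seedlings. HTB4 had an adjusted p under 0.05 in csn3 (-0.61, adjusted p = 0.0249), under the size limit. It had none in csn4 (-0.22) or csn5-labelled seedlings (-0.19). HTB2 had an adjusted p under 0.05 in each line. Its light difference was 0.49 for csn3, 0.91 for csn4 and 0.80 for the csn5-labelled line. Relative to the median of all probe sets the csn3 value was 0.34, and its adjusted p was under 0.05 in 36 of 37 alternatives (highest 0.156). The csn4 value is the 1 light comparison with WT made within a single range of sample numbers. In the csn mean an adjusted p under 0.05 at any size was reached by 1 of 5 members and by 48.5% of all probe sets.

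**Figure D2:**
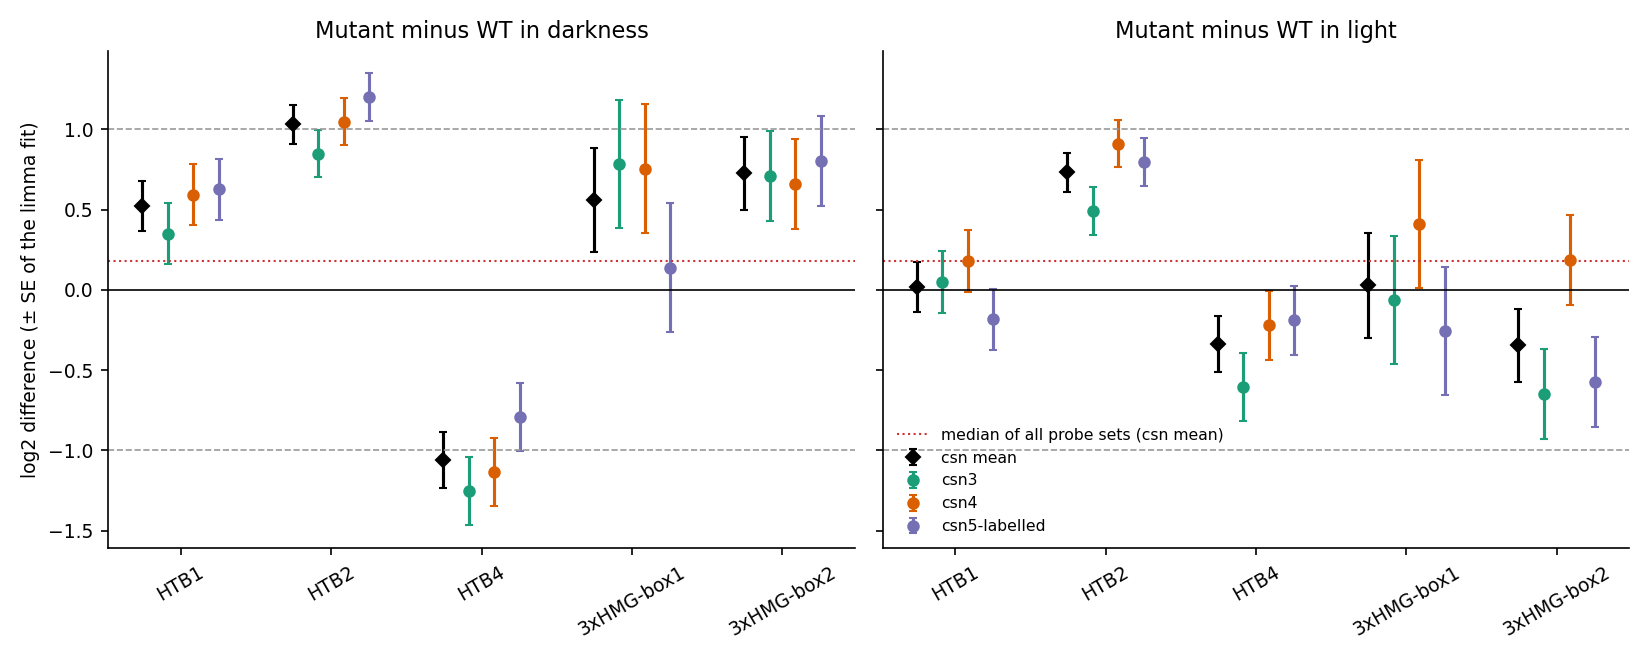
Log2 difference from WT (± SE of the limma fit) for the mean of the mutants and for each line, in darkness (left) and light (right). Dashed lines mark the size limit of 1 and the dotted line the median of all probe sets, 0.18. HTB2 lies above and HTB4 below 0 in darkness in every line, and in light HTB2 stays between 0.49 and 0.91.

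HTB2 and HTB4 were also compared with each other inside each array. Within an array, the log2 signal of HTB2 minus that of HTB4 ran from -2.74 to -1.79 in WT dark and from -0.56 to 0.27 in the 9 dark mutant arrays. In light it ran from -1.54 to -1.40 in WT and from -0.72 to 0.15 in mutants. The ranges of mutants and WT did not overlap in either condition. In darkness that had to follow, since every mutant array lay above WT for HTB2 and below WT for HTB4. The dark separation of the pair therefore adds no separate support. Among other pairs of members, HTB2 minus HTB1 overlapped WT in darkness and not in light. HTB1 minus HTB4 overlapped WT in light and not in darkness, and the 3xHMG-box pair overlapped WT in both. The HTB2 minus HTB4 difference does not depend on how an array is scaled, apart from the 50 added. Mutants exceeded WT by 2.10 in darkness and 1.07 in light, a description without a test. It shows unequal change of the pair, not which transcript was more abundant. Nor does it show that HTB4 changed in light, where its own difference in the csn mean did not pass. By line, HTB4 in light had an adjusted p under 0.05 in csn3 alone (-0.61), under the size limit. The H2B genes are close paralogs, and how far each probe set binds transcripts of another was not tested.

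**Figure D3:**
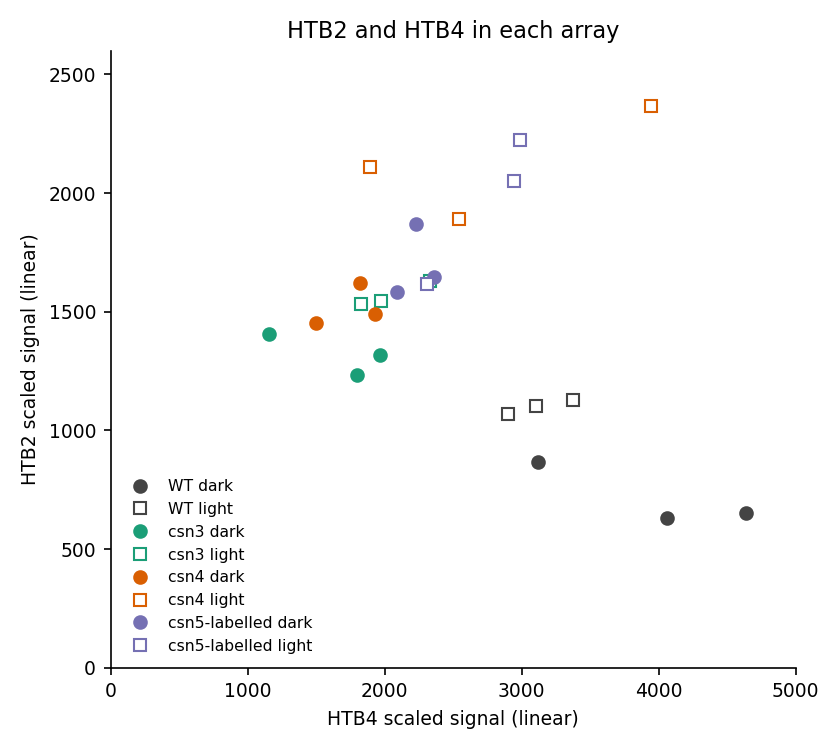
HTB2 against HTB4 scaled signal (both linear axes from 0), 1 point per array, circles for dark-grown and squares for light-grown seedlings. WT arrays sit at the lower right (HTB2 from 632 to 1128) and every mutant array lies higher on the HTB2 axis (from 1235 to 2365).

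Across the 8 groups, mean HTB2 signal ran from 716 ± 130 in WT dark through 1100.2 ± 28.5 in WT light and 1320.4 ± 85.4 in csn3 dark to 2123 ± 237 in csn4 light (SD, n = 3). WT dark, WT light, csn3 dark and the next group, csn4 dark, had separate ranges, whereas from csn4 dark upward each group overlapped its neighbour. HTB4 was highest in WT dark at 3939 ± 769, followed by WT light at 3126 ± 238, and lowest in csn3 dark at 1639 ± 428. Each of its groups overlapped the next in that order, so the order of neighbours carries no weight. HTB1 ran from 791 ± 65 in WT dark to 1253 ± 387 in csn4 dark, again with neighbours overlapping throughout.

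3xHMG-box2 was the member called higher in light than in darkness in WT. Its signal was 199, 252 and 386 in WT dark and 969, 790 and 670 in WT light, with no overlap. The csn3 arrays gave 789, 302 and 439 in darkness and 512, 378 and 614 in light. The csn4 arrays gave 394, 691 and 343 in darkness and 1211, 1023 and 618 in light. The csn5-labelled arrays gave 497, 557 and 477 in darkness and 539, 581 and 455 in light. Dark and light arrays thus overlapped in every mutant line. By group mean, csn4 light (951 ± 303) and WT light (810 ± 151) stood highest and overlapped each other, WT light did not overlap csn5-labelled light below it, and the remaining groups overlapped in sequence down to WT dark at 279.

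The rise in WT was 1.41 ± 0.28 (adjusted p = 0.000208), and 3xHMG-box2 was the 1 member of 5 called there, against 19.2% of all probe sets. It was called in all 37 alternatives, with values from 1.14 to 1.63, although the range of sample numbers changes between WT dark and WT light. HTB2 was 0.60 ± 0.15 higher in WT light than in WT dark (adjusted p = 0.00211, under the size limit). With it, 2 members had an adjusted p under 0.05 at any size, against 34.8% of probe sets. HTB1 (0.24), HTB4 (-0.31) and 3xHMG-box1 (0.78, adjusted p = 0.141) did not pass.

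Within the mutants, light against darkness called 0 of 5 members in csn3 (background 0.880%), in csn4 (3.49%) and in csn5-labelled seedlings (3.82%). At an unadjusted p under 0.05, limma counted 0, 3 and 1 members. For 3xHMG-box2 the light difference was 0.05 in csn3 (95% interval -0.53 to 0.63) and 0.03 in csn5-labelled seedlings (-0.54 to 0.61). In csn4 it was 0.93 ± 0.28 (adjusted p = 0.0342), under the size limit, and it passed that limit without csn4 dark replicate 2 (1.21) or csn4 light replicate 3 (1.201), with quantile normalization (1.01) and with array weights (1.1045). Here too the sample number range changes with growth.

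The interaction tests whether the light difference itself differs from WT. For 3xHMG-box2 and the mean of the mutants it was -1.07 ± 0.32 (adjusted p = 0.0123), a call, as were those of 19.3% of probe sets. By line it was -1.36 in csn3 (adjusted p = 0.0136), -1.38 in csn5-labelled seedlings (adjusted p = 0.00998) and -0.48 in csn4 (adjusted p = 0.444, 95% interval -1.29 to 0.34). Only the csn4 interaction is free of the change in sample number range. The csn-mean call was lost without WT dark replicate 1 (-0.89, adjusted p = 0.0585), WT light replicate 1 (-0.94), csn3 dark replicate 1 (-0.96), csn4 dark replicate 2 (-0.98) or csn4 light replicate 3 (-0.98), and with array weights (-0.67). The csn3 call was lost without csn3 dark replicate 1 (-1.02, adjusted p = 0.055), without the 4 arrays of highest actin ratio (-0.98, adjusted p = 0.0807) and with array weights (-0.94).

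By line, 1 member was called in the csn3 interaction (background 16.2%), 0 in csn4 (18.2%) and 1 in csn5-labelled seedlings (20.8%), in each case 3xHMG-box2 where there was a call. In csn4, limma gave 1 member an unadjusted p under 0.05. That was HTB4, at 0.92 (adjusted p = 0.0271), and for the mean of the mutants HTB4 gave 0.72 ± 0.25 (adjusted p = 0.0265), both under the size limit. The csn4 value passed it without WT dark replicate 1 (1.07) or csn4 light replicate 1 (1.16). Together with 3xHMG-box2 this made 2 of 5 members at an adjusted p under 0.05 at any size, against 29.7% of probe sets. HTB2 gave -0.30 (adjusted p = 0.208), so its dark and light differences from WT were not shown to differ. HTB1 gave -0.51 (adjusted p = 0.0864).

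**Figure D4:**
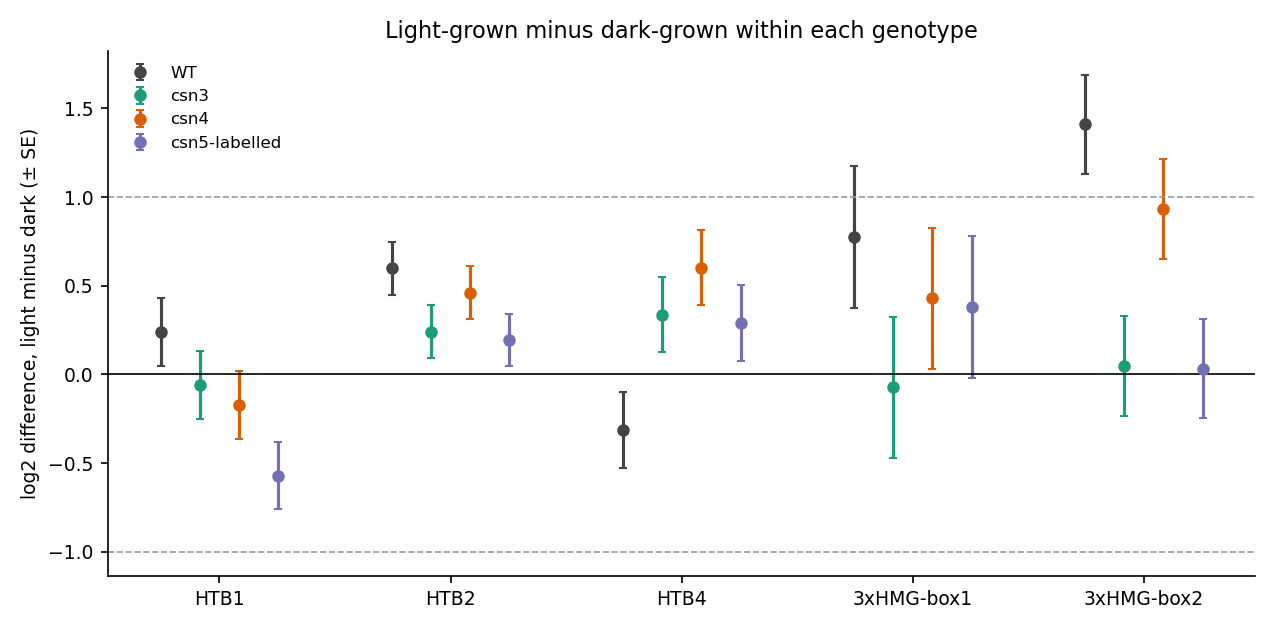
Log2 difference of light-grown minus dark-grown seedlings (± SE of the limma fit) within each genotype for the 5 members. For 3xHMG-box2, WT (1.41) and csn4 (0.93) stand above csn3 (0.05) and csn5-labelled seedlings (0.03), and for HTB4, WT lies below 0 and the mutants above.

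Against WT in each condition, 3xHMG-box2 was 0.73 ± 0.23 higher in the mean of the mutants in darkness (adjusted p = 0.00898, under the size limit) and differed by -0.35 ± 0.23 in light (adjusted p = 0.219). The dark values of csn3 (0.71), csn4 (0.66) and csn5-labelled seedlings (0.81) lay close together. Single arrays moved them. The csn3 value was 0.37 without csn3 dark replicate 1 (adjusted p = 0.297) and 1.00, a call, without csn3 dark replicate 2. The csn4 value was 0.38 without csn4 dark replicate 2, and the csn5-labelled value 1.03, a call, without WT dark replicate 3. With array weights the csn mean was 0.39 (adjusted p = 0.0594), csn3 0.26 and csn4 0.37, and over all 37 alternatives the adjusted p of the csn mean reached 0.0964. In light the lines gave -0.65, 0.18 and -0.57.

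3xHMG-box1, the paralog of 3xHMG-box2, was dim and scattered. Dark-grown WT gave 44.0, 86.5 and 128, and dark-grown csn3 gave 283, 117 and 159. Dark-grown csn4 gave 160, 142 and 224, and the csn5-labelled line gave 90.2, 116 and 81.5. Light-grown WT gave 289, 166 and 106, and light-grown csn3 gave 177, 116 and 215. Values in light reached both extremes, with 216, 379 and 186 for csn4 against 233, 266 and 25.0 for csn5-labelled seedlings. The csn4 dark arrays lay above WT dark, and every other mutant group overlapped WT. By group mean it ran from 86.2 in WT dark to 260.1 in csn4 light. Neighbouring groups overlapped except csn3 light (lowest array 116.3) and csn5-labelled dark below it (highest 115.6). The differences of the csn mean were 0.56 ± 0.33 in darkness (adjusted p = 0.151) and 0.03 ± 0.33 in light (95% interval -0.64 to 0.70), and the dark interval ran from -0.11 to 1.23, so these arrays did not resolve a change near the size limit in darkness.

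The mutant lines were also compared with each other. Of 5 members, 0 were called between csn3 and csn4 (background 0.448%), csn3 and csn5-labelled (0.341%) or csn4 and csn5-labelled seedlings (1.97%) in darkness. In light 0 were called in the same pairs, with backgrounds of 0.0213%, 0.384% and 1.93%. At an unadjusted p under 0.05, limma counted 0, 2 and 0 members in darkness and 2, 1 and 1 in light. The differences ranged from -0.46 to 0.64 in darkness and from -0.83 to 0.76 in light. Without csn4 light replicate 3, 1 member was called between csn4 and csn5-labelled seedlings in light.

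The other H2B genes tested went both ways in light, and in darkness HTB10 alone lay above WT. Of 11 H2B genes listed, 9 had a probe set of their own and 8 were tested, the 3 members included. In darkness 2 were called higher (background 13.5%), 1 lower (11.7%) and 5 neither, with a median of -0.10 against 0.18 over all probe sets. In light 1 was called higher, against a background of 11.4% called higher, and 7 neither. HTB10 was the further gene called, and the 1 gene called in light. It had a signal of at least 100 in 0 WT arrays and 13 mutant arrays, so it entered the test only through the mutants and its calls support nothing about the family. Its mean was 22.7 in WT dark, 26.0 in WT light, 118 in dark mutants and 136 in light-grown mutants. HTB11 differed like HTB4, by -0.96 ± 0.19 in darkness (adjusted p = 8.61e-05) and -0.73 in light (adjusted p = 0.00199), under the size limit. HTB5 differed by -0.30 in darkness and -0.74 in light (adjusted p = 0.00071). HTB7 differed by -0.002 in darkness and 0.65 in light (adjusted p = 0.00617), and HTB3 by -0.20 and 0.09.

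Linker histones, which bind the DNA between nucleosomes, included the largest differences among the histone genes tested. Of 38 other histone genes, 6 were tested, and in darkness 3 fell (background 11.7%), 1 rose (13.5%) and 2 were not called. H1.1 fell by 1.73 ± 0.14 in darkness and fell by 2.18 ± 0.14 in light. H1.2 fell by 1.22 ± 0.14 and fell by 1.72 ± 0.14. H1.3, a linker variant linked to stress and low light, fell by 3.97 ± 0.21 in darkness (adjusted p = 1.2e-14), from a mean of 3917 in WT dark to 210 in the dark mutants. HTR12, the centromeric H3 of dividing cells, rose by 1.39 ± 0.17 in darkness and was 0.96 higher in light (adjusted p = 4.24e-05). In light 2 of the 6 fell, with 9.21% of all probe sets called lower, and 1, the H3 gene HTR6, was called higher. HTR6 reached 100 in 0 WT arrays and 8 mutant arrays, so it too entered only through the mutants. Its mean was 3.83 in WT light and 109 in light-grown mutants, and no fold is given against so dim a signal.

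**Figure D5:**
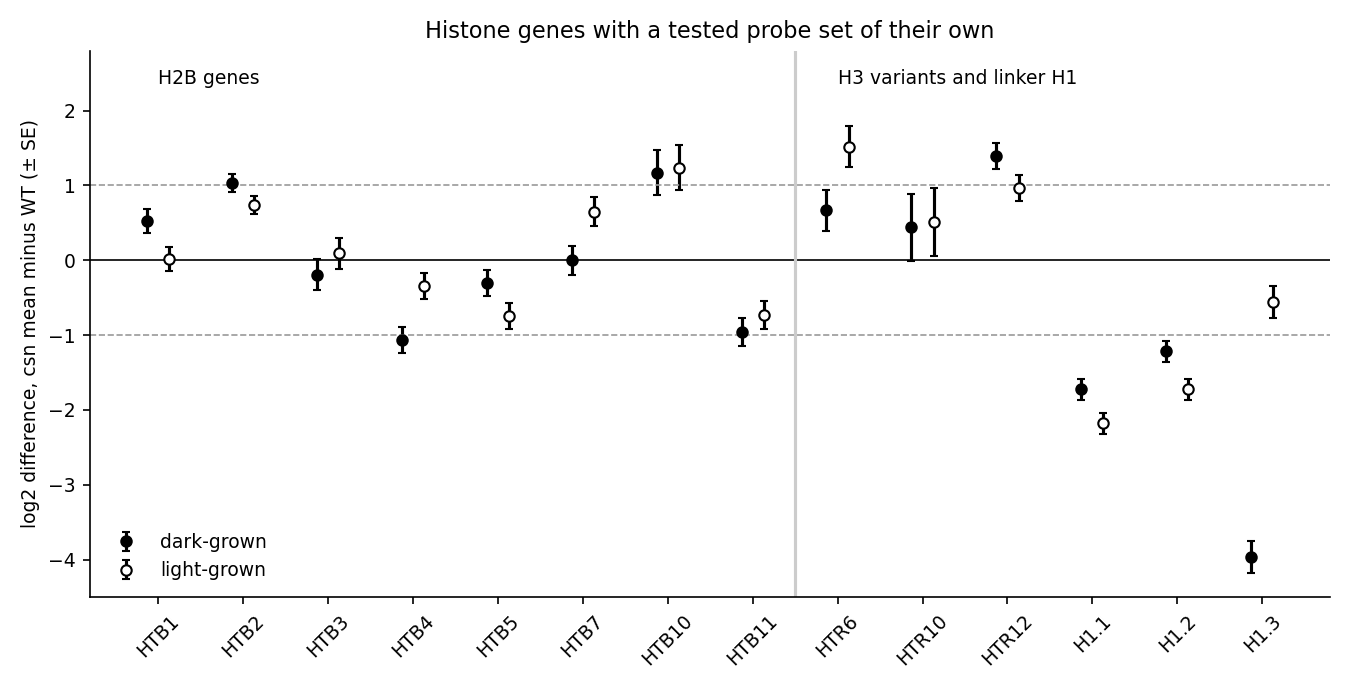
Log2 difference of the csn mean from WT (± SE) for the 8 H2B genes and 6 other histone genes tested, filled for darkness and open for light. HTB10, HTR6 and HTR10 reached a signal of 100 in mutant arrays only. H2B genes lie on both sides of 0, H1.1 and H1.2 lie below -1 in both conditions, and H1.3 lies at -3.97 in darkness.

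Of 17 HMG-box and related genes, 7 were tested, both members included. HMGB14 rose by 1.06 ± 0.22 in darkness, though it reached 100 in 1 WT array against 18 mutant arrays, and the other 6 were not called. In light HMGB9, an ARID and HMG-box protein, fell by 1.09 ± 0.31 and 6 were not called. Among all probe sets, 13.5% were called higher in darkness and 9.21% lower in light. Histone chaperones hand histones to DNA. Of the 3 tested of 13, ASF1B, an H3–H4 chaperone of replicating cells, rose by 1.86 ± 0.15 in darkness (adjusted p = 2.26e-11) and was 0.89 higher in light. Neither ASF1A, at -0.17 in darkness and -0.30 in light, nor NASP, at 0.38 and 0.60, was called. UBP26, a deubiquitinase of H2B, was the 1 tested gene of 7 in that pathway and differed by 0.06 in darkness and 0.11 in light.

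Cell division genes were read beside the members, since histone and 3xHMG-box transcripts accompany the cell cycle. Of 29 replication genes 3 were tested and 0 were called, with 1 at an unadjusted limma p under 0.05 in darkness and 2 in light. Background shares of calls were 13.5% higher and 11.7% lower in darkness, and 20.6% either way in light. The flap endonuclease gene FEN1, which trims DNA flaps at replication forks, differed by 0.84 and 0.99 in darkness and light, and MCM7, of the replicative helicase, by -0.19 and -0.80. Of 35 genes of G2 and M phase 4 were tested. In darkness the mitotic kinase gene AUR3 (1.43 ± 0.21) and the checkpoint gene BUBR1 (1.12 ± 0.30) rose, where 13.5% of probe sets were called higher. BUBR1 had 2 WT and 9 mutant arrays at or above 100. In light 0 of 4 were called (background 20.6%), with 2 at an unadjusted limma p under 0.05. The summed signal of these 4 genes was 566 to 715 in WT dark and 1267 to 1814 in dark mutants, and 1023 to 1073 in WT light and 1039 to 1847 in light-grown mutants. Of 19 inhibitors of the cell cycle 3 were tested. SIM, which promotes endoreduplication, fell by 1.55 ± 0.16 in darkness, where 11.7% of probe sets were called lower.

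Tissue markers moved as well. Root markers (5 of 11 tested) summed to 24666 to 27348 in WT dark against 4699 to 8953 in dark mutants. In light the sum was 17451 to 18219 in WT against 4733 to 8227 in mutants. Most of the sum was PYK10 alone, with means of 22508 in WT dark, 6378 in dark mutants, 16270 in WT light and 5549 in light-grown mutants. By call, 4 of 5 fell in each condition, against 11.7% of probe sets called lower in darkness and 9.21% in light. Among them was EXPA18, which reached 100 in 6 WT arrays and 1 mutant array. Green tissue markers (7 of 10 tested) summed to 21271 to 26558 in WT dark, 25635 to 48689 in dark mutants, 105081 to 114809 in WT light and 28970 to 48080 in light-grown mutants. In darkness 3 of 7 were called higher (background 13.5%), 1 lower (11.7%) and 3 neither. They ran from RCA, which activates Rubisco, at 2.91 to LHCB4.2, of the photosystem II antenna, at -2.47. In light 5 fell (background 9.21%) and 2 were not called. Of 10 shoot apex markers, CLV3 alone had a probe set and it was too dim to test. The part of tissue make-up in the HTB2, HTB4 and 3xHMG-box2 differences was not tested.

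RNA quality was set beside the members directly. With the log2 actin ratio as a covariate, the dark differences were 1.05 for HTB2 (adjusted p = 8.33e-08) and -1.16 for HTB4 (adjusted p = 4.04e-06), and the csn-mean interaction of 3xHMG-box2 was -1.17 (adjusted p = 0.00682). The interaction includes the light groups, where the ratios of WT and mutants do not overlap, so the covariate cannot separate RNA quality from genotype there. In darkness the overlap rests on WT dark replicate 2 (21.3) alone. The other WT dark arrays (2.26 and 4.79) lay below every dark mutant array (lowest 6.12), so there too the covariate separates the 2 poorly. Without the 4 arrays of highest ratio, HTB2 was 0.93 and HTB4 -0.96 in darkness, under the size limit. WT dark replicate 2 was among those 4, so without them the dark ratios of WT and mutants did not overlap either.

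For each member, the 4 genes with the most similar pattern were taken as those with the highest Pearson correlation of log2 signal over the 24 arrays, among 10615 other tested probe sets naming 1 gene. These arrays share genotype and growth differences, so the values describe likeness only. Closest to HTB2 were AT2G35040 (0.94), AT3G23940 (0.93), AT2G20060 (0.92) and AT1G69730 (0.92). Closest to HTB4 were AT3G10020 (0.82), BIGYIN (0.82), AT3G25580 (0.79) and AT5G50900 (0.78). HTB1 was most like AT3G07320 (0.87), PGY1 (0.84), AT1G73620 (0.83) and AT5G57290 (0.83). For 3xHMG-box1 they were AT4G16800 (0.82), AT3G49990 (0.78), AT1G44780 (0.77) and AT2G43640 (0.77), and for 3xHMG-box2 AT3G15550 (0.86), AT4G10060 (0.80), AT5G55220 (0.80) and AT5G53880 (0.79). Other members were absent from these lists.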

How the data were processed

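Linear-scale signal intensity values, 1 for each probe set and array, were deposited by the authors, who used MAS5 per the submitters' processing notes. Its version and settings are not given in the sources used here. All 24 columns were matched to samples by identifier, and 0 were left out. Here, arrays were rescaled to the same 2% trimmed mean, 500, and transformed as log2(signal + 50), so differences of dim probe sets are understated. Of 22810 probe sets, 64 controls were removed, and of the other 22746 those reaching 100 in 3 or more arrays, 18751, were tested. limma 3.58.1 (lmFit, eBayes with trend, R 4.3.3) estimated a mean for each group from the 24 arrays together. Benjamini-Hochberg adjustment of a contrast ran over all tested probe sets, and a call needed an adjusted p under 0.05 with a log2 change of 1 or more in either direction. The fit was tested on simulated data.

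Names came from the platform annotation, which listed 13513 probe sets with 1 gene and 503 with several, leaving 8730 unnamed here. A TAIR10.1 gene table, used for names only, held the genes of 13436 single-gene probe sets. The members and the 11 gene lists (200 genes) were chosen with earlier results of these data known. Named genes were the members, up to 4 genes of each list by adjusted p of the csn mean in each condition, and the 4 genes most like each member. HTB3 and HTB7 were named besides, to give every H2B gene tested. Alternatives covered pseudocount, normalization, filter, trend, samples in the fit, replicate block, array weights, RNA quality and leaving out each array. The actin pair used for RNA quality was the one that followed the GAPDH ratio, and a covariate from the other actin pair was added after the data were seen. Figures were drawn with matplotlib 3.10.9.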

Additional observations from a re-analysis of the deposited data

Results flagged for a closer look

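In 6 cases the difference from WT was itself not the same in light and darkness by limma's interaction test at an adjusted p under 0.05. For 3xHMG-box2 the interaction was -1.07 in the csn mean (adjusted p = 0.0123), and an adjusted p under 0.05 was reached in 35 of 37 alternatives. By line it was -1.36 in csn3 and -1.38 in csn5-labelled seedlings, and the latter was called in all 37 alternatives (-1.60 to -1.05). In csn4 it was -0.48 (adjusted p = 0.444), the 1 line whose interaction is free of the change in sample number range. The csn mean, csn3 and csn5-labelled interactions of every member cross those ranges, from which they cannot be told apart, and no alternative addresses this. For HTB4 it was 0.72 in the csn mean (adjusted p = 0.0265), with an adjusted p under 0.05 in 31 of 37 alternatives and values from 0.53 to 0.88. In csn4 HTB4 gave 0.92, reached in 26 of 37 alternatives, and csn4 light replicate 2, the array with the highest actin ratio, is among the arrays behind it. HTB1 gave -0.81 in csn5-labelled seedlings (adjusted p = 0.026), with an adjusted p under 0.05 in 31 of 37.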

How the results depend on the processing

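Over 16 contrasts and 5 members, 1040 values were recomputed under 13 alternatives other than leaving out an array, of which 994 kept their direction and side of the threshold, 15 lost a call, 3 gained one (HTB2 in csn4 in light at 1.01 with quantile normalization, and 3xHMG-box2 between light and darkness in csn4, given above) and 28 changed sign. None of the sign changes touched a called value, and the cause was not tested. The dark HTB2 difference of the csn mean was under the size limit with a pseudocount of 100 (0.99), with arrays scaled to their median (0.86) and without the 4 arrays of highest actin ratio (0.93). HTB4 in darkness was under it with quantile normalization (-0.996) and without those 4 arrays (-0.96). The 3xHMG-box2 interaction of the csn mean was under it with a pseudocount of 100 (-0.97), quantile normalization (-0.96), without the 4 arrays (-0.97) and with array weights (-0.67).

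The sign changes are given by member. For 3xHMG-box1 in the csn mean in light they were -0.000137 with a pseudocount of 16, -0.15 with quantile normalization, -0.13 with median scaling, -0.26 with the actin covariate and -0.057 without the 4 arrays. For HTB1 there they were -0.18 with median scaling, -0.12 with the actin covariate, -0.045 with the other actin pair, -0.018 without the 4 arrays and -0.025 with array weights. In csn3 against WT in light HTB1 gave -0.13 with median scaling, -0.084 with the actin covariate and -0.032 with the other pair. In csn4 light HTB1 gave -0.095 and -0.0057 with median scaling and the actin covariate, and 3xHMG-box2 gave -0.089 and -0.088. Light against darkness gave, in csn3, 0.00078 for HTB1 with the actin covariate, -0.058 for 3xHMG-box2 with the other pair, and for 3xHMG-box1 0.033 with quantile normalization, 0.057 with the actin covariate, 0.20 without the 4 arrays and 0.039 with array weights. In csn5-labelled seedlings 3xHMG-box2 gave -0.057 with quantile normalization and -0.074 with median scaling. Array weights turned 3xHMG-box1 in csn5-labelled seedlings from 0.14 to -0.10 in darkness, from -0.26 to 0.22 in light and from -0.40 to 0.32 in the interaction.

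Leaving out each array in turn gave 0.96 to 1.17 for HTB2 and -1.22 to -0.94 for HTB4 in the dark csn mean, -1.29 to -0.89 for 3xHMG-box2 in its interaction, and -0.062 to 0.057 for HTB1 and -0.24 to 0.32 for 3xHMG-box1 in light. By line in light the ranges were -0.053 to 0.12 for HTB1 and -0.33 to 0.23 for 3xHMG-box1 in csn3, -0.50 to 0.021 for HTB4 and -0.0076 to 0.45 for 3xHMG-box2 in csn4, and -0.63 to 0.41 for 3xHMG-box1 in csn5-labelled seedlings. For 3xHMG-box1 in csn5-labelled seedlings they were -0.10 to 0.36 in darkness and -0.77 to 0.27 in the interaction. Light against darkness ranged from -0.20 to 0.095 for HTB1, -0.29 to 0.20 for 3xHMG-box1 and -0.24 to 0.39 for 3xHMG-box2 in csn3, from -0.38 to 0.049 for HTB1 in csn4, and from -0.037 to 0.12 for 3xHMG-box2 in csn5-labelled seedlings. Members called between csn4 and csn5-labelled seedlings in light numbered 0 to 1.

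Replicate numbers did not pair the samples: of 28 pairs of groups, 1 had every same-number correlation above 0.1. Over all 28 pairs the same-number correlations ran from -0.34 to 0.38. With the replicate number as a block, HTB2 in the dark csn mean stayed at 1.03 and HTB4 at -1.06, and the block changed no member's call. The background counts of some comparisons depended on the setting. Between csn3 and csn4 the 84 dark calls ranged from 10 to 249 and the 4 light calls from 1 to 39. Between csn3 and csn5-labelled seedlings 64 ranged from 29 to 96 and 72 from 38 to 239, and between csn4 and csn5-labelled seedlings 369 from 122 to 819 and 361 from 26 to 630. Light against darkness ranged from 107 to 536 for the 165 in csn3 and from 224 to 1297 for the 654 in csn4. Signal over background limits 3xHMG-box1, which lay under 100 in 5 of 24 arrays.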

Other observations

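Light against darkness in WT separated the histone and HMG-box genes further. H1.3 fell by 4.19 ± 0.26 with light in WT (adjusted p = 8.9e-13), and its interaction in the csn mean was 3.42 ± 0.30 (adjusted p = 8.3e-10), opposite in sign to that of 3xHMG-box2. HMGB9 rose by 2.00 ± 0.37 with light in WT, from a mean signal of 21.8 to 236, and its interaction was -2.08 ± 0.43 (adjusted p = 0.000422). BUBR1 rose by 1.04 ± 0.37 with light in WT and had an interaction of -1.50 ± 0.43 (adjusted p = 0.00759). SIM fell by 2.25 ± 0.20 with light in WT, with an interaction of 1.72 ± 0.23. These WT differences cross the ranges of sample numbers, from which they cannot be told apart.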
